A study of Drosophila melanogaster with 2 samples.

Results

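The mitochondrial ribosome genes described here are the nuclear protein-coding genes of Drosophila melanogaster whose symbols begin with mRpL (large subunit) or mRpS (small subunit). They numbered 73, with 47 for the large and 26 for the small subunit, among 13945 protein-coding genes on the 6 chromosome arms analysed. Binding of Hmx, an NK-class homeodomain transcription factor, was mapped in the fly line Hmx-MiMIC-GFP, in which an intronic eGFP exon makes Hmx a fusion with eGFP. Pools of male and female whole embryos aged 0 to 24 h were sonicated, and the tagged protein was pulled down with anti-GFP (the antibody entry of the labels reads Hmx) and sequenced. The 2 samples, biological replicates 2 and 3 of the same line, were the only group. The files are lists of regions, so the sequencing depth is unknown, and a level in untagged embryos was not analysed here. Binding was averaged over all cells of the embryo, no expression was measured, and no test over samples is possible with 1 group, so all shares below are descriptions.

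The mitochondrial ribosome translates the few proteins encoded by mitochondrial DNA, which are subunits of the oxidative phosphorylation complexes. Its RNAs come from the mitochondrial genome, but its proteins are encoded in the nucleus, made in the cytoplasm and imported. The small subunit decodes the messenger RNA and the large subunit forms the peptide bonds. The genes lie scattered over the nuclear chromosomes, so a supply of all proteins draws on many separate promoters.

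Hmx-eGFP marked a minority of these genes, a few of them very strongly. A gene was counted as bound when a summit, the highest point of a region in the set that passed the irreproducible discovery rate (IDR) procedure, lay inside the gene or up to 1 kb before its start. By this rule 13 of the 73 genes were bound, a share of 17.8%, against 12.2% of all protein-coding genes. The strongest summits lay at mRpS10, mRpL41, mRpS23 and mRpL23, and 10 of the 13 genes had their strongest summit upstream of the start, 86 to 390 bp away. The summits stood in stretches rich in A and T, mostly between the gene and a neighbour that is read in the opposite direction.

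The sequence under 7 of these summits is shown because it carries that feature and lets the strong sites mRpS10 and mRpS23 be set beside weaker ones. The strong sites mRpL41 and mRpL23 are not shown, so the stretches are a selection of the bound genes. It was read from the RefSeq copy of the dm6 genome, 5′ to 3′ on the coding strand of the mitochondrial ribosome gene, and capitals mark runs of at least 6 letters that are all A or T. The mRpS10 stretch is the whole space between the starts of mRpS10 and Art3 (chr3R:15229409-15229664, plus strand, 256 bases), with the summit at base 112. The mRpS23 stretch lies next to the start of CenG1A (chr2L:13835312-13835563, minus strand, 252 bases), with the summit at base 102. For mRpL24 (chr2L:4945397-4945497, minus strand), mRpS7 (chr2L:10386468-10386568, plus strand), mRpL20 (chr3L:13018009-13018109, minus strand) and mRpS31 (chr3L:16004935-16005035, plus strand) the 101 bases centred on the summit are given. For mRpS2 (chr2L:4850548-4850640, minus strand) the window stops short of the start of Mon1 and has 93 bases, with the summit at base 43. All 7 stretches are intergenic.
mRpS10: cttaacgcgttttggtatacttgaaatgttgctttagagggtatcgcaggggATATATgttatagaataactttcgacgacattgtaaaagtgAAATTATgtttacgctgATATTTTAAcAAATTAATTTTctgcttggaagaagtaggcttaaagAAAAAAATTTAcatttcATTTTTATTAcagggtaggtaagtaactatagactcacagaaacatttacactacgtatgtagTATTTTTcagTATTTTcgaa
mRpS23: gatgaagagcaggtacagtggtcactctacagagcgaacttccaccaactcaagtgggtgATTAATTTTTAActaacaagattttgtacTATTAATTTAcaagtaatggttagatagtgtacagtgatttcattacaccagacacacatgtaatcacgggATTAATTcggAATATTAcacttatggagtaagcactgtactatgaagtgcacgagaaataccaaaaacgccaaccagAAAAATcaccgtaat
mRpL24: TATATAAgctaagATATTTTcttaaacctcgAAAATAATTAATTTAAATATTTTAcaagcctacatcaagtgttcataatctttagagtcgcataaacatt
mRpS7: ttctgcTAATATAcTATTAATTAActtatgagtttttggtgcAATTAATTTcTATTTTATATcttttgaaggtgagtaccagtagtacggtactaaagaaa
mRpL20: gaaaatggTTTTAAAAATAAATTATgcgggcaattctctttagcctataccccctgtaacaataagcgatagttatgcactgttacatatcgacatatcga
mRpS2: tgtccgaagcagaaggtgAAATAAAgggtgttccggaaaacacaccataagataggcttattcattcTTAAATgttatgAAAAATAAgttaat
mRpS31: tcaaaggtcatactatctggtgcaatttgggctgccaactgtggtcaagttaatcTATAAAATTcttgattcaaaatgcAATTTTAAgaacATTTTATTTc

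In the mRpS10 stretch 26.2% of bases lay in such A+T runs, the longest of 11 bases, and the summit fell inside such a run near the middle of the space. The mRpS23 stretch had 16.7% of its bases in runs, the longest of 12 bases. At mRpL24 the share was 37.6% with a single run of 24 bases, and at mRpS7 it was 35.6% with a longest run of 10 bases. The share was 16.8% at mRpL20, 22.6% at mRpS2 and 25.7% at mRpS31, with longest runs of 17, 8 and 9 bases. Among the stretches shown, the shares thus did not follow the strength of the sites, and the stretches differ in length. Homeodomain factors are known for binding short A+T-rich words, of which TAATTA and TAATTG are common, and NK-class members for TAAGTG or CAAGTG, all read here on either strand. The mRpL24 window holds TAATTA and CAAGTG, and the mRpS7 window holds TAATTA and TAATTG. The longer mRpS23 stretch holds TAAGTG and CAAGTG, but neither lies whole within the 101 bp centred on its summit. The stretches of mRpS10, mRpL20, mRpS2 and mRpS31 hold none of these 4 words.

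The bound small subunit genes are taken first. Each region has a deposited signal in the units of the peak caller, and IDR regions are ranked by it among the 1595 nuclear regions of the set (lowest 78.4, median 110.5, highest 1041). At all 13 bound genes the IDR region had the same signal in the pooled list, with a q value of 0.653% there. This q value was the same at the strongest and the weakest of them, so it does not tell these sites apart. mRpS10 (FBgn0038307) encodes a bacterial-type protein of the small subunit. Its region at chr3R:15229358-15229712 had an IDR signal of 743.5 and rank 5, with a signal of 407.2 in replicate 2 and 339.7 in replicate 3. The summits of both replicates lay within 2 bp of the IDR summit. The summit was 145 bp upstream of mRpS10 and 112 bp from the start of Art3, an arginine methyltransferase gene, and so nearer to the neighbour.

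mRpS23 (FBgn0260407) encodes a protein found in mitochondrial but not bacterial ribosomes. Its region at chr2L:13835287-13835631 had a signal of 658.0 and rank 8, with 322.6 in replicate 2 and 335.7 in replicate 3. The summit was 390 bp upstream of mRpS23, the farthest of the upstream summits, and 102 bp from the start of CenG1A, which encodes a GTPase-activating protein of the Arf family. Both mRpS10 and mRpS23 thus belonged to the strongest regions of each replicate, at rank 4 and rank 11 in replicate 2 and at rank 6 and rank 7 in replicate 3.

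The other 4 bound small subunit genes had signals near or below the median of the set. mRpS9, a bacterial-type small subunit gene, had a signal of 114.6 at rank 747, with 75.3 in replicate 2 and 40.8 in replicate 3. This summit lay in an intron of mRpS9, 7034 bp after its start, and 189 bp from the start of wtrw, a TRP channel gene that lies within mRpS9. mRpS9 was also the only bound gene of the 73 without a divergent neighbour. The other 12 bound genes had bodies of at most 2 kb.

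mRpS7, another bacterial-type gene, had a signal of 99.4 at rank 983, with 54.3 in replicate 2 and 49.4 in replicate 3. Its summit lay 144 bp upstream, between mRpS7 and Cdk1, the gene of the mitotic kinase, whose starts are 400 bp apart. mRpS2, also bacterial in type, had 90.5 at rank 1187, with 45.4 in replicate 2 and 42.5 in replicate 3. Here the summit was 179 bp upstream of mRpS2 but 43 bp from Mon1, a gene of vesicle trafficking. mRpS31, which encodes a mitochondria-specific protein, had 89.3 at rank 1217, with 49.1 in replicate 2 and 37.8 in replicate 3, and its summit lay 208 bp upstream in the 457 bp between its start and that of hzg.

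Among the bound large subunit genes mRpL41 (FBgn0034001), which encodes a protein specific to mitochondrial ribosomes, was the strongest. Its region at chr2R:15217589-15217923 had a signal of 714.4 and rank 6, with 361.8 in replicate 2 and 352.7 in replicate 3. The summit lay 125 bp upstream of mRpL41 in the 762 bp that separate it from CG8079. mRpL41 was the only gene of the 73 with a second IDR summit, which lay 328 bp upstream with a signal of 83.9 at rank 1372, and with 28.5 in replicate 2 and 45.6 in replicate 3. The second region was thus in the weaker part of the set, beside a first region near its top.

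mRpL23 encodes a protein near the exit of the tunnel through which the new peptide leaves. Its region at chr3L:2373459-2373755 had a signal of 395.3 and rank 39, with 202.1 in replicate 2 and 193.2 in replicate 3. It differed in place from the other strong regions, since its summit lay in the 5′ UTR, 48 bp after the nearest start of mRpL23. The divergent gene CG9004 starts 24 bp from the outermost mRpL23 start and 98 bp from the summit. mRpL24, whose bacterial counterpart acts early in large subunit assembly, had 176.6 at rank 303, with 94.9 in replicate 2 and 70.6 in replicate 3. This summit lay 86 bp upstream, between mRpL24 and betaggt-I, the gene of a protein prenyltransferase subunit.

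mRpL34, a bacterial-type large subunit gene, had a signal of 126.7 at rank 590, with 56.3 in replicate 2 and 73.3 in replicate 3, and a summit 166 bp upstream in the 384 bp towards Dg, the dystroglycan gene. mRpL20, whose bacterial counterpart also serves in assembly, had 96.9 at rank 1028, with 61.5 in replicate 2 and 34.7 in replicate 3. Its summit lay 192 bp upstream, towards Icmt, the gene of a methyltransferase for prenylated proteins. mRpL54, a mitochondria-specific gene, had the lowest strongest signal of the bound genes, 84.6 at rank 1345, with 40.6 in replicate 2 and 43.7 in replicate 3. The summit was 116 bp upstream, in the 242 bp towards CG15653.

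mRpL27, whose product lies near the peptidyl transferase centre, was the exception among the bound genes in its replicates. Its signal was 102.0 at rank 938, with 69.0 in replicate 2 but no region at the gene in replicate 3, where the nearest summit was 16275 bp away. Its summit lay in the 3′ UTR, 942 bp after the start of mRpL27 and 296 bp before the start of RpL27A, a cytoplasmic ribosomal protein gene downstream. Across the 73 genes there were 14 IDR summits, and 13 of them had a summit of both replicates within 250 bp. Of all 1595 nuclear IDR regions 1547 did, so this count is near the background. The IDR set was made from both replicates, so the match is partly built in.

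**Figure D1:**
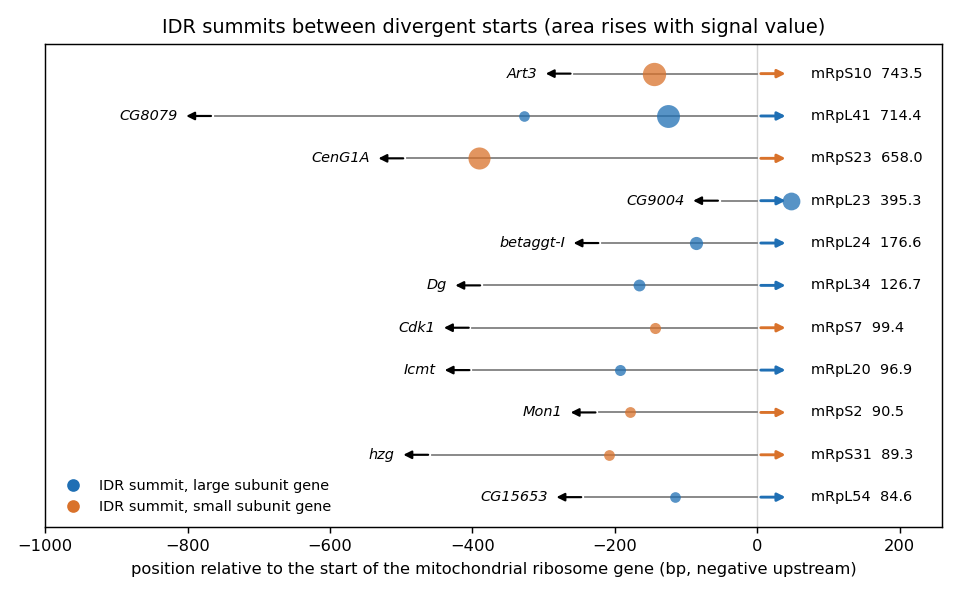
The 11 bound genes whose own start had a summit within 500 bp, from the highest to the lowest signal, with position relative to that start in bp on the x axis. Coloured arrows are the mitochondrial ribosome genes, black arrows the divergent neighbours, circles the IDR summits with area rising with the signal value printed at the right. For mRpL23 position 0 is the start nearest to the summit. Most summits lie between the starts, and those of mRpS10, mRpS23 and mRpS2 lie nearer to the neighbour.

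The map of the promoters shows how often these summits were shared. Every IDR summit at these genes also fell inside or within 1 kb before at least 1 other protein-coding gene, so the assignment to the ribosomal gene is not exclusive. How often all nuclear IDR summits were shared in this way is not given here. The sharing is thus not shown to be particular to these genes. A divergent neighbour, read from the other strand with its start less than 1 kb upstream, was present at 56 of the 73 genes, or 76.7%, against 33.3% of all protein-coding genes. The share was 36 of 47 genes for the large subunit and 20 of 26 for the small subunit. The median distance between the paired starts was 287.5 bp, with 271.5 bp for the large and 396 bp for the small subunit. The genes were also short, with a median body of 909 bp against 2166 bp over all genes.

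Of the 12 bound genes with a divergent neighbour, 10 had the strongest summit between the 2 starts. It was nearer to the ribosomal gene in 7 of these and nearer to the neighbour in mRpS10, mRpS23 and mRpS2. Over the 13 bound genes the median position was -144 bp with quartiles of -179 and -86 bp. It was -116 bp for the large and -162 bp for the small subunit. The shares of summits upstream of a start or between 2 starts are not given here for all bound protein-coding genes. These positions are thus not shown to be particular to the ribosomal genes. No IDR summit lay between 1 and 2 kb upstream of any of the 73 genes, so the limit of 1 kb cut off no member.

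The share of bound genes depends on what it is set beside. With a divergent neighbour, 12 of 56 mitochondrial ribosome genes were bound, or 21.4%, against 19.6% of all such genes, a share near the background that is no result about the ribosome. Without such a neighbour 1 of 17 was bound, or 5.88%, against 8.48% of all such genes. Among genes with a body of at most 2 kb, 12 of 70 were bound, or 17.1%, against 6.75% of all genes that short. Among genes that were both short and divergent it was 12 of 55, or 21.8%, against 14.3%. These limits on length and pairing were chosen after the values had been seen, and how far short bodies and shared promoters account for the count was not tested.

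For summits within 500 bp of a start of the gene itself, 11 of the 73 genes were bound, or 15.1%, against 9.04% of all genes. At the top of the list, of the 73 genes, 4 held one of the strongest 100 nuclear summits, or 5.48%, against 1.06% of all genes, and 3 of the 4 stood among the strongest 20. The choice of the strongest 100 was made after these peaks had been seen, so this share gives no independent support. For the strongest 20 no share over all genes is given. Among these, the summits of mRpS10 and mRpS23 were nearer to the starts of Art3 and CenG1A. The middle of the distribution did not stand out, since the bound genes had a median signal of 114.6 against 117.7 over all 1700 bound protein-coding genes.

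The subunits were both represented, with 7 of 47 large subunit genes bound (14.9%) and 6 of 26 small subunit genes (23.1%). The counts differ by few genes, and members are not replicates, so no test of the difference was made. The median signal of the bound genes was 126.7 for the large and 107.0 for the small subunit. Each subunit had 2 genes among the strongest 100 summits, mRpL41 and mRpL23 for the large and mRpS10 and mRpS23 for the small. When each summit was given to the gene with the nearest start only, 8 of the 73 genes were left, 6 large and 2 small subunit genes, against 9.39% of all genes, so that this share was near the background. The loss came about because the summits of mRpS10, mRpS23, mRpS2, mRpS9 and mRpL27 were nearer to other genes.

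Below the IDR set the lists go on into weaker regions, which were deposited as peaks and background together and are not taken as called binding. The pooled list had a region at 44 of the 73 genes, or 60.3%, against 55.9% of all genes. The replicate 2 list had one at 55 genes, or 75.3%, against 61.4%, and the replicate 3 list at 36 genes, or 49.3%, against 55.6%. At a q value below 5% the counts were 17 genes in the pooled list, or 23.3%, against 19.6%, then 33 genes in replicate 2, or 45.2%, against 25.9%, and 12 genes in replicate 3, or 16.4%, against 13.9%. The replicates thus differed: the ribosomal genes were above the share of all genes in replicate 2 and below it or close to it in replicate 3.

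By subunit, the pooled list held 26 of 47 large and 18 of 26 small subunit genes (55.3% and 69.2%), replicate 2 held 36 and 19 (76.6% and 73.1%), and replicate 3 held 21 and 15 (44.7% and 57.7%). At a q value below 5% the order of the subunits turned between the replicates, with 48.9% of large and 38.5% of small subunit genes in replicate 2 but 10.6% and 26.9% in replicate 3, and 21.3% and 26.9% in the pooled list. A region in both replicates was present at 33 genes, or 45.2%, against 46.0% of all genes, which is the background. In all, 30 genes, or 41.1%, had a region in the pooled list and both replicates, against 44.2% of all genes, and 15 genes, or 20.5%, had none in any list, against 28.1%. A further 22 genes, or 30.1%, had a region in replicate 2 and none in replicate 3, against 15.4% of all genes. The opposite case held for 3 genes, or 4.11%, against 9.67% of all genes. The cytoplasmic ribosomal protein genes had shares of 25.8% and 1.08% in these cases, so they differed between the replicates in the same direction.

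Of the 60 genes with no IDR summit, the 5 with the strongest pooled region lay outside the set at nuclear ranks of 1923 to 3192. mRpS26, beside CG13698, had a pooled signal of 71.0 at nuclear rank 1923, with 55.3 in replicate 2 and 20.2 in replicate 3. The lowest bound gene, mRpL54, stood at 84.6 and the lowest nuclear region of the set at 78.4. mRpL32, beside qless, had a pooled signal of 68.5, with 37.6 in replicate 2 and 24.7 in replicate 3. Both genes were lower in replicate 3 than in replicate 2.

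mRpL35, beside Mitofilin, a gene of the inner membrane organising system of mitochondria, had a pooled signal of 66.0, with 34.0 in replicate 2 and 31.3 in replicate 3. mRpL11, beside HtrA2, the gene of a mitochondrial protease, had 64.6 pooled, with 40.1 in replicate 2 and 25.2 in replicate 3. mRpS25, beside nmdyn-D6, had 57.3 pooled at a q value of 5.10%, with 25.3 in replicate 2 and 29.2 in replicate 3. In each of the 5 the pooled summit was upstream, at -198, -153, -128, -40 and -462 bp in the order given, which is the same side as for most bound genes. Over all 44 genes with a pooled region, 37 had the strongest summit within 500 bp of a start and the median position was -139.5 bp. These positions are not set beside those of all genes with a pooled region, so they are not shown to be particular to this group.

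**Figure D2:**
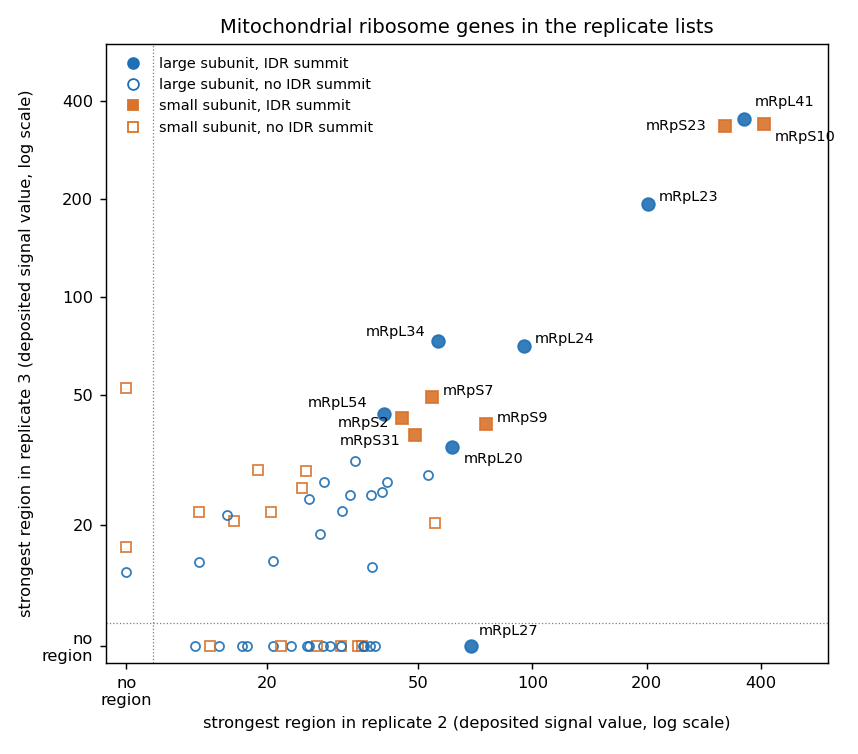
Signal value of the strongest region at each mitochondrial ribosome gene in replicate 2 (x axis) and replicate 3 (y axis), both on log scales of the caller's units, with genes that lack a region in a list placed at the edge. Circles are large and squares small subunit genes, filled where the gene had an IDR summit. The 4 strongest genes lie far from the rest in both replicates, and mRpL27 has no region in replicate 3.

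The plot of the replicate signals separates a few strong genes from a cloud of weak ones. Over the 33 genes with a region in both replicates Spearman's rho was 0.761 and Pearson's r of the log10 signal was 0.918. Over the 12 bound genes among them rho was 0.727 and r was 0.963, and over the 21 unbound genes rho was 0.265 and r was 0.292. The points are genes measured in the same 2 libraries, and weak regions end at each list's own lowest value. The IDR set was made from both replicates and is meant to hold reproducible regions. Of its 1595 nuclear regions, 1547 had a summit of both replicates within 250 bp, and that of mRpL27 was among those that did not. The gap between bound and unbound genes is therefore partly built in and is no result about these genes. The strongest region was taken in each list separately, so the 2 values of a gene can come from different places. At mRpS18B, for example, the summits lay at 808 bp in replicate 2 and at -472 bp in replicate 3. This limit holds for the correlations as well. The ratio of replicate 2 to replicate 3 had a median of 1.09 over the 33 genes and ran from 0.602 to 2.74. Over 1547 IDR regions matched within 250 bp, which is an unlike measure, the median was 1.13.

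The base composition at the summits was lower in G and C than the sequence around them. In the 101 bp around the strongest summit of the 13 bound genes the median G+C content was 26.7%, with a range of 20.8 to 35.6%, against 45.5% in windows centred 300 bp to either side. The summit was below its flanks at 12 of the 13 genes, and at mRpS23 both were 28.7%. All nuclear IDR summits had a median of 29.7%, against 44.1% in their flanks, so the ribosomal genes were close to the set as a whole. Over the promoter, taken as 250 bp before to 50 bp after the start, the median was 34.7% at the 73 genes, with 32.3% at bound and 35.8% at unbound ones, against 38% over all genes.

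Of the words searched on both strands around those 13 summits, TAATTA was found at 2, TAATTG at 3 and CAAGTG at 1, and TAAGTG at none. The shares of all nuclear IDR summits with these words were 11.2%, 12.2%, 4.01% and 5.45%. The counts at the 13 summits are small, and a share here moves by several percent with a single gene. In the promoters TAATTA was present at 20.5% of the 73 genes against 20.4% of all genes, TAATTG at 35.6% against 25.2%, TAAGTG at 13.7% against 14.9% and CAAGTG at 23.3% against 17.2%.

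Of the 8 words searched, the share differed most from that of all promoters for the E-box CAGCTG, which is its own reverse complement and is a known binding word of basic helix-loop-helix factors. It was present at 40 of the 73 promoters, or 54.8%, against 17.7% of all promoters. It was found at 27 large and 13 small subunit genes, and at 6 of 13 bound and 34 of 60 unbound genes. It was found in none of the 101 bp windows around the 13 strongest summits, but 2.45% of all nuclear IDR summits held it, so a count of 0 among 13 is no result about these genes. The E-box was thus common among both bound and unbound genes.

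Most of the E-boxes lay near the start. Over 45 copies in the 73 promoters the median position of the first base was 2 bp after the start, with quartiles of -34 and 16 bp, against a median of -51 bp over all promoters. A copy within 50 bp of the start was present at 35 genes, or 47.9%, against 9.30% of all genes. At the bound genes the 9 copies were more spread, with a median of -34 bp and quartiles of -237 and -11 bp. The copies farthest upstream there, at -237 bp in mRpL24, -245 bp in mRpS2 and -239 bp in mRpL54, lay near the start of the divergent neighbour. Those starts are 218, 222 and 242 bp upstream in the same order. At the unbound genes the 36 copies had a median of 7.5 bp and quartiles of -13 and 16.5 bp. Of all 45 copies, 5 began 250 to 200 bp before the start, or 6.85 per 100 promoters, against 2.46 over all genes. These include the copies of mRpL24, mRpS2 and mRpL54 given above. The position was examined after the share had been seen. To show the word in its surroundings, 24 bases with the E-box in capitals are given 5′ to 3′ on the coding strand. The bound genes shown are mRpL23 (chr3L:2373718-2373741, minus strand), mRpL24 (chr2L:4945327-4945350, minus strand) and mRpS2 (chr2L:4850416-4850439, minus strand). The bound genes mRpL41, mRpL54 and mRpS9 also hold the word and are not shown. All stretches were chosen for holding the word, so their likeness at the word is fixed in advance. Of the 5 unbound genes with the strongest pooled region, mRpS26 holds no E-box in its promoter, and the other four follow, mRpL32 (chr3R:31252847-31252870), mRpL35 (chr3R:22023513-22023536) and mRpL11 (chr3R:14511824-14511847) on the plus strand and mRpS25 (chrX:14582962-14582985) on the minus strand.
mRpL23: gttgacaatCAGCTGtttaaaaca
mRpL24: agttctcaaCAGCTGattgcaagc
mRpS2: actacccacCAGCTGtttaccaaa
mRpL32: tcgatagcaCAGCTGtttcctctt
mRpL35: aatggcacaCAGCTGactgttacg
mRpL11: caataccatCAGCTGttgctgctt
mRpS25: ccgaccgatCAGCTGttcgcatta

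Where a gene has several copies, the sequence shows the copy nearest to the start. In these sequences the E-box begins at -28 bp from the start at mRpL23, at -11 bp at mRpS2 and at 20 bp at mRpL24. At the unbound genes it begins at -16 bp at mRpL32, at -5 bp at mRpL35 and mRpL11, and at 6 bp at mRpS25. Further copies, not shown, begin at -237 bp in mRpL24, -245 bp in mRpS2 and -248 bp in mRpL32. The Hmx-eGFP summits of mRpL24 and mRpS2, at -86 and -179 bp, lay between the copies of their promoters. Among genes with a divergent neighbour 21.7% of promoters held the word, and among short ones with such a neighbour 23.2%.

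**Figure D3:**
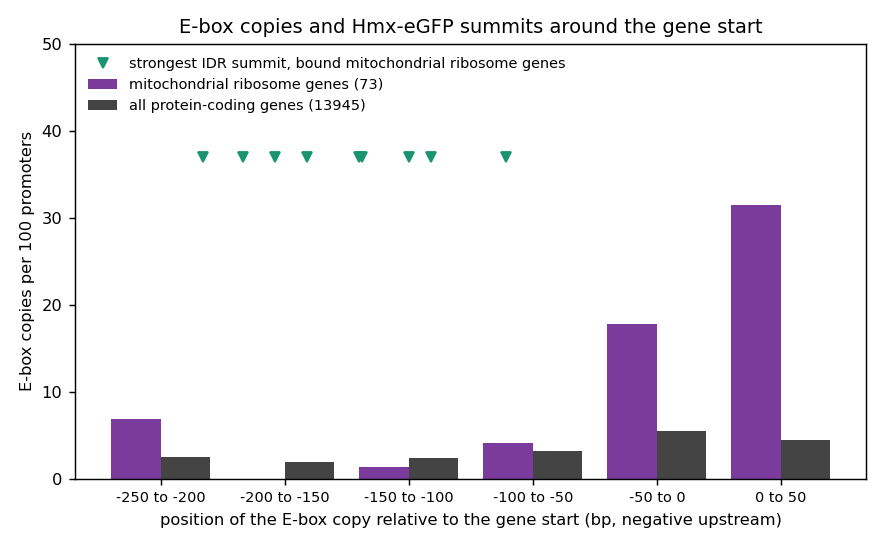
E-box copies (CAGCTG) per 100 promoters in bins of 50 bp relative to the gene start, for the 73 mitochondrial ribosome genes (purple) and all 13945 protein-coding genes (grey). Triangles mark, at an arbitrary height, the 9 strongest IDR summits of bound genes that fall in the same window. The copies are densest in the last 2 bins, at 17.8 and 31.5 per 100 promoters of the ribosomal genes, and the summits plotted lie upstream of these bins. Outside the window, the summit of mRpS23 lies farther upstream, and those of mRpL23, mRpL27 and mRpS9 lie after the start.

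Other groups of mitochondrial genes were searched for the same word from lists of symbols. It was present at 4 of 9 genes of mitochondrial translation factors, at 9 of 18 genes of mitochondrial aminoacyl-tRNA synthetases, which load the transfer RNAs, and at 6 of 15 genes of mitochondrial transcription and RNA processing. It was present at 25.9% of 81 oxidative phosphorylation genes and at 9.68% of 93 cytoplasmic ribosomal protein genes. The DRE word TATCGATA, which is also its own reverse complement and is known from promoters of growth genes, was present at 15 of the 73 genes, or 20.5%, against 9.36% of all genes. The core of promoter Motif 1, GGTCACAC, was present at 8 of the 73 genes against 7.70% of all genes, and GAGAGA, a word of GAGA factor, at 6.85% against 12.3%, and none of these 3 words was found around the 13 strongest summits. The shares of all nuclear IDR summits with them were 1.25% for DRE, 0.376% for Motif 1 and 3.20% for GAGAGA, so these counts of 0 say nothing about the ribosomal genes.

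**Figure D4:**
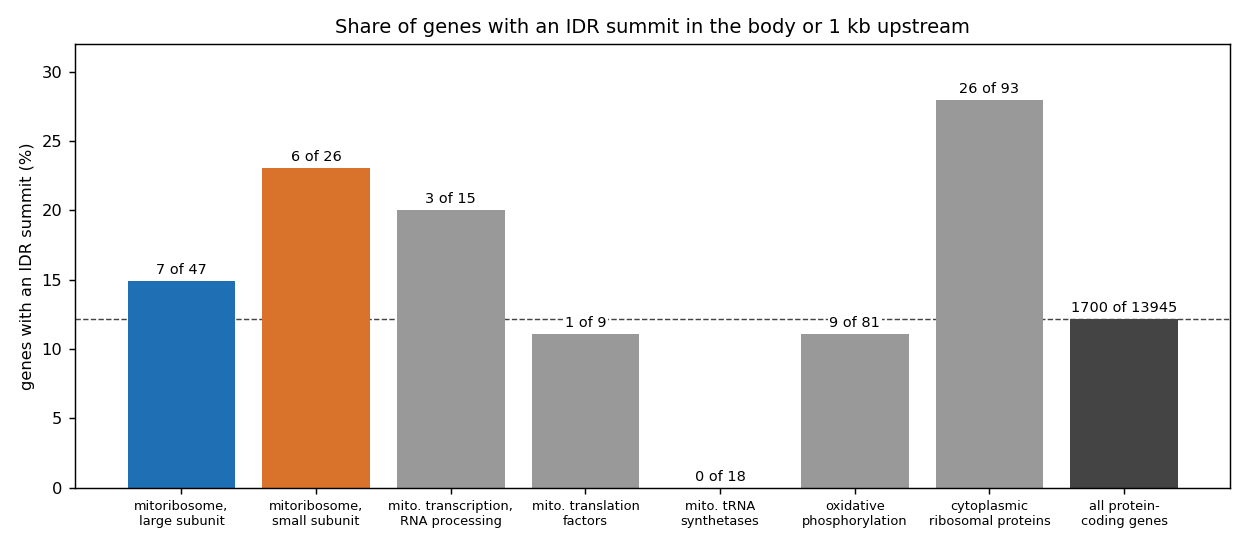
Share of genes with an IDR summit in the gene or up to 1 kb before it, in percent, for the 2 subunits of the mitochondrial ribosome, 5 other gene groups and all protein-coding genes, with counts above the bars and a dashed line at the 12.2% of all genes. Cytoplasmic ribosomal protein genes have the highest share, 28.0%, and the mitochondrial tRNA synthetases have none.

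The plot of shares by group sets the mitochondrial ribosome beside genes of related function. Cytoplasmic ribosomal protein genes were bound at 26 of 93, or 28.0%, which was above the 17.8% of the mitochondrial ribosome genes. Their highest signals were lower, with 222.8 at RpL34b, 207.5 at RpL32, 204.5 at RpS27 and 154.0 at RpS20. The strongest mitochondrial ribosome gene, mRpS10, stood at 743.5, and 4 of its family were above the highest value of the cytoplasmic genes. The median signals of the bound genes were close, at 114.6 for the mitochondrial and 117.4 for the cytoplasmic ribosome.

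Oxidative phosphorylation genes, whose complexes hold the proteins the mitochondrial ribosome makes, were bound at 9 of 81, or 11.1%, with the highest signal of 182.9 at blw, the gene of the alpha subunit of ATP synthase. Genes of complex I followed, with 126.3 at ND-51, 120.0 at ND-39 and 116.8 at ND-24. None of the 18 synthetase genes and neither tko nor bonsai, which encode mitochondrial ribosomal proteins under other names, was bound. Of the translation factors 1 of 9 was bound, waw, which encodes a GTPase of the elongation factor 4 type, with 209.3 at 4780 bp after its start.

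Of the 15 genes of mitochondrial transcription and RNA processing, 3 were bound. PNPase, which encodes polynucleotide phosphorylase, had a signal of 545.3 at rank 14 with the summit 77 bp after its start. SLIRP2, a gene of a protein that binds mitochondrial messenger RNA, had 469.0 at rank 27 with the summit at -109 bp. Its relative SLIRP1 had 125.7 with the summit at -118 bp. As with the mitochondrial ribosome, the strong summits in this group were few and lay close to a gene start.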

How the data were processed

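Chromatin immunoprecipitation and sequencing gave 4 region lists on dm6: 30000 regions for each replicate, 30000 from both pooled, and 1607 in the optimal IDR set, per the file records. Lists on dm3 were not used. The signal value per region is in the caller's units and was used as the authors deposited it, within a list. The −log10 q value that the authors deposited was converted to a q value in percent. Which caller, aligner and IDR cutoff were used is not given in the sources used here. Without depth no counting interval for a region's signal can be given.

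Summits (start plus offset, 1-based) were assigned to protein-coding genes of Ensembl release 115 (BDGP6.54) on 2L, 2R, 3L, 3R, 4 and X with Python 3.11.15, pandas 2.3.3 and numpy 2.4.6, and sequence came from the RefSeq copy of dm6. Position is relative to the nearest start of the gene, and promoter words relative to its outermost start. Assignment was tested on simulated summits. No column of per-sample values was left out.

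All bound genes are named, with values in every list, and of the unbound genes the 5 with the strongest pooled region. Of other groups the 4 strongest bound genes are named. The genes, lists and words were chosen with earlier results of these data known. The other groups were matched by symbol (9 of 16 entries for translation factors, 18 of 23 for synthetases, 15 of 16 for transcription and RNA processing, 2 of 3 for other ribosomal names, 20 of 22 for oxidative phosphorylation, 3 of 4 for the cytoplasmic ribosome, paralogues included). Alternatives were another assignment, upstream limits, thresholds, match distances and each replicate alone.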

Additional observations from a re-analysis of the deposited data

How the results depend on the processing

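The count of 13 bound genes (17.8%, against 12.2% of all genes) was 13 with 500 bp or 2 kb upstream (11.6% and 13.6% of all genes), 11 within 500 bp of a start (15.1%, against 9.04%) and 17 in the pooled list at a q value below 0.05 (23.3%, against 19.6%). Given to the nearest start only, summits left 8 genes, 2 of them in the small subunit, against 9.39% of all genes, which is near the background. Among regions above the median signal 7 genes were left (9.59%, against 6.72%), 4 in the large and 3 in the small subunit. With as many of the strongest regions of a single replicate as the set holds, the count was 11 to 14 genes (15.1% against 11.7% in replicate 3, 19.2% against 12.6% in replicate 2), 5 to 7 in the large and 6 to 7 in the small subunit. The DRE word was in 20.5% of the 73 promoters, against 9.36% of all, and in 0% of the 13 shorter windows around the summits, against 1.25% of all IDR summits. Divergent neighbours numbered 51 with starts within 500 bp and 56 with neighbours of any type, the median position was -144 bp also from the outermost start, and 13 summits matched both replicates at 100 and at 500 bp. No paired analysis was possible because there was 1 group. Depth is unknown, so absence of a region does not show absence of binding, and no values of untagged embryos were used here.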

Other observations

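Some genes without an IDR summit had a region that the replicates and the pooled list treated differently, and they were named after their values were seen. mRpS22 had a region in replicate 3 of signal 52.6 at nuclear rank 797, with a q value of 0.437% and the summit 222 bp upstream, but none in replicate 2 or in the pooled list. mRpL10 had 52.9 at rank 1080 in replicate 2 and 28.4 at rank 4126 in replicate 3, and mRpL37 had 41.5 at rank 1791 and 27.1 at rank 4821, yet neither had a pooled region. Of the 1792 nuclear regions of replicate 2 to rank 2000 that had a replicate 3 summit within 250 bp, 17 had no pooled summit that close, or 0.949%.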
